A study of Mus musculus with 12 samples.

Results

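The cytokine genes described here are 10 secreted mediators that T cells are known to make: Ifng, Il2, Il3, Il4, Il10, Il16, Il21, Csf1, Csf2 and Spp1. They were taken as a named list. Of the 10, 9 had at least 1 probe set whose annotation names only that gene. Spp1, the secreted phosphoprotein osteopontin, was not analysed here. The 9 genes stand among 18193 genes measured in all, and 16 probe sets name one of them alone. Where several probe sets name a gene alone, the one brightest on average over the 12 arrays stands for it.

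RNA of sorted CD8 T cells, the killer lineage of T lymphocytes, was hybridised to 12 mouse Affymetrix arrays, 1 per sample. The first 2 groups were tumour-infiltrating lymphocytes (TIL) from mice bearing B16F10-GP, a skin melanoma line placed in the right flank. They were sorted as PD-1+ Tim-3+ cells (n = 4) or PD-1+ Tim-3- cells (n = 3) on days 17 to 19, and the labels call the Tim-3+ cells exhausted and the Tim-3- cells stem-like. PD-1 and Tim-3 are inhibitory receptors of activated T cells. The gates also took 2B4+ cells with Tim-3+ and 2B4- cells with Tim-3-, so that the 2 markers cannot be told apart. The third group was CD8 T cells from the spleen of naive mice (n = 5), for which no sort gate is given. All mice were 6 to 8 weeks old and are labelled C57bl/c. TIL therefore differ from naive cells in tissue, digestion and Percoll isolation as well as in antigen experience. Whether the arrays of a group came from separate mice, and whether mice were pooled, is not given in the sources used here, so that p-values measure the spread between these samples, which may be technical.

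Cytokines are the messages by which T cells act at a distance. Interferon gamma, coded by Ifng, is the main effector cytokine of CD8 T cells and raises antigen presentation in the cells that receive it. IL-2 drives T cell division, and CD8 T cells under lasting antigen exposure are known to lose the ability to make it early. IL-2, IL-4 and IL-21 signal through receptors that share the common gamma chain. IL-3 and GM-CSF (Csf2) share a receptor beta chain and act on myeloid cells, and M-CSF (Csf1) maintains macrophages through another receptor, CSF1R. Transcription of several of these genes is switched on after T cell receptor triggering by NFAT, AP-1 and NF-kappaB factors binding near the start of the gene.

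RefSeq promoter windows on build GRCm38.p6, from 250 bases before to 50 after a start, were found for 9 of the 10 genes (13 windows). The gene without a window was Il10, and 2 of the 13 windows belong to Spp1, which was not analysed on the arrays. The 5 below belong to cytokines whose arrays did not overlap between the TIL groups. These are Il2, Il3 and Csf2, which were highest in Tim-3- TIL, and Csf1 and Ifng, which were highest in Tim-3+ TIL. The Ifng difference between the TIL groups missed the threshold of 0.05 (limma, adjusted p = 0.0536). Il4 arrays did not overlap there either, and its windows are not shown. The windows read 5′ to 3′ on the strand of the gene, and capitals mark the NFAT core, GGAAA or its reverse complement TTTCC.
Il2, chr3:37125905-37126204, minus strand: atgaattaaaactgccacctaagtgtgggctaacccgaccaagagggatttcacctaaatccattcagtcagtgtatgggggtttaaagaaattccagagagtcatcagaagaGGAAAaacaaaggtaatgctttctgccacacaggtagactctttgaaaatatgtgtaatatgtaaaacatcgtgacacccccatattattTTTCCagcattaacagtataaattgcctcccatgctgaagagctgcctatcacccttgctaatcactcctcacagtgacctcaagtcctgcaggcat
Il3, chr11:54267230-54267529, minus strand: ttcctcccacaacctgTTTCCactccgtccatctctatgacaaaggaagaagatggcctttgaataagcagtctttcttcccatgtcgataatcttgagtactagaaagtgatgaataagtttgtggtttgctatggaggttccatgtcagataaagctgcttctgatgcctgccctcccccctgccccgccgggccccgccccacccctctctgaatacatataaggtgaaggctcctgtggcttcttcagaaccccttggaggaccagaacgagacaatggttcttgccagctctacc
Csf2, chr11:54249850-54250149, minus strand: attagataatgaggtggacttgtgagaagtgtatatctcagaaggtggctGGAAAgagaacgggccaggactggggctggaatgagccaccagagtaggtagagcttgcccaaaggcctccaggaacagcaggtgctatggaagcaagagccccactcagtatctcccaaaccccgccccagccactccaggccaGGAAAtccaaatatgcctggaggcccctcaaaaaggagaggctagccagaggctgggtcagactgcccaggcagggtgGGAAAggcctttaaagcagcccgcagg
Csf1, chr3:107760420-107760719, minus strand: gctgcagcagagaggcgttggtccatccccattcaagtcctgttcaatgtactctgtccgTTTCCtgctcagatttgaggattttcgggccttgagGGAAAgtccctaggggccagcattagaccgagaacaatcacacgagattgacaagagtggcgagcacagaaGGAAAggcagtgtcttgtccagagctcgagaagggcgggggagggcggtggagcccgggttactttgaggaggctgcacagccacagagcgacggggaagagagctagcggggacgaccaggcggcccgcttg
Ifng, chr10:118440796-118441095, plus strand: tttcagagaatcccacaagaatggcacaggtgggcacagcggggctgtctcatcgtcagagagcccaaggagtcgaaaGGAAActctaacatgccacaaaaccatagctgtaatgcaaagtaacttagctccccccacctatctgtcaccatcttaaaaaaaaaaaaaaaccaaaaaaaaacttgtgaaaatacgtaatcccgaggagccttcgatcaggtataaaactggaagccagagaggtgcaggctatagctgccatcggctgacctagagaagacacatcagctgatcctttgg

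The NFAT core occurred 2 times in the Il2 window, once in that of Il3, 3 times in that of Csf2, 3 times in that of Csf1 and once in that of Ifng. All 13 windows held it, beside 61.3% of the 32851 windows of all genes. Searched on both strands, the AP-1 letters TGANTCA were found in 1 of the 13, in Il16, beside 7.81% of all windows. The NF-kappaB consensus was found in 3, of Csf1, Csf2 and Il16, with at least 1 match in each overlapping the NFAT core, beside 20.7% of all windows. The T-box letters AGGTGT were found in 2, of Il16 and Il21, beside 13.7%. A match shows letters only.

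Levels are log2 intensities, given per array in the order of the replicate numbers. Intensities of different probe sets cannot be compared with each other, so that each gene was compared only with itself across groups. The sums over marker lists, given below, are the exception, since they add different probe sets. No detection calls were used. A group mean below log2 5.71, percentile 40 of all genes, may lie at background, and a change against such a group is at best a lower bound. Of the 27 group means of the 9 cytokines, 10 lay above it. Among 22 measured genes known to be silent in these tissues, 11 were above it too. A level above the limit therefore does not by itself show expression. The genes of the 3 gate markers were read as a check of the labels. Havcr2, which codes Tim-3, averaged 11.66 ± 0.14 in Tim-3+ TIL, 7.08 ± 0.49 in Tim-3- TIL and 4.63 ± 0.23 in naive cells (SD). Cd244a, which codes 2B4, averaged 11.49 ± 0.54 in Tim-3+ TIL, 4.89 ± 0.77 in Tim-3- TIL and 4.19 ± 0.30 in naive cells, and Pdcd1, which codes PD-1, averaged 11.77 ± 0.17 in Tim-3+ TIL, 11.37 ± 0.09 in Tim-3- TIL and 5.14 ± 0.31 in naive cells. Cd8a averaged 12.85 in Tim-3+ TIL, 12.63 in Tim-3- TIL and 12.82 in naive cells. The arrays were parted into 2 sets by the sign of the first component of their deviations from the group means. Such a rule splits every group, and no label names the sets. Set A holds Tim-3+ replicates 1 and 2, Tim-3- replicate 1 and naive replicates 1 and 2, and set B the other 7. The component that parts them carried 35.9% of the variance within groups, and changes within each set are given where they bear on a result. Fits within a set have fewer arrays, and set A has a single Tim-3- array. A call lost there may reflect the few arrays alone.

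Between the TIL groups, 1 of the 9 cytokines was higher in Tim-3+ TIL and 4 were lower, where 13.5% of all genes passed the same test (7.77% higher and 5.77% lower). The gene that rose was Csf1, and those that fell were Il2, Il3, Csf2 and Il16. The median log2 change over the 9 was -0.39, beside 0.01 over all genes. The test was limma over all genes with Benjamini-Hochberg adjusted p below 0.05. Arrays of the TIL groups did not overlap for 6 of the 9, namely Ifng, Csf1 and Il4 above and Il2, Il3 and Csf2 below, where 22.7% of all genes showed no overlap (13.1% above and 9.57% below). In bulk RNA, fewer cells that express a gene and less RNA per cell cannot be told apart.

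**Figure D1:**
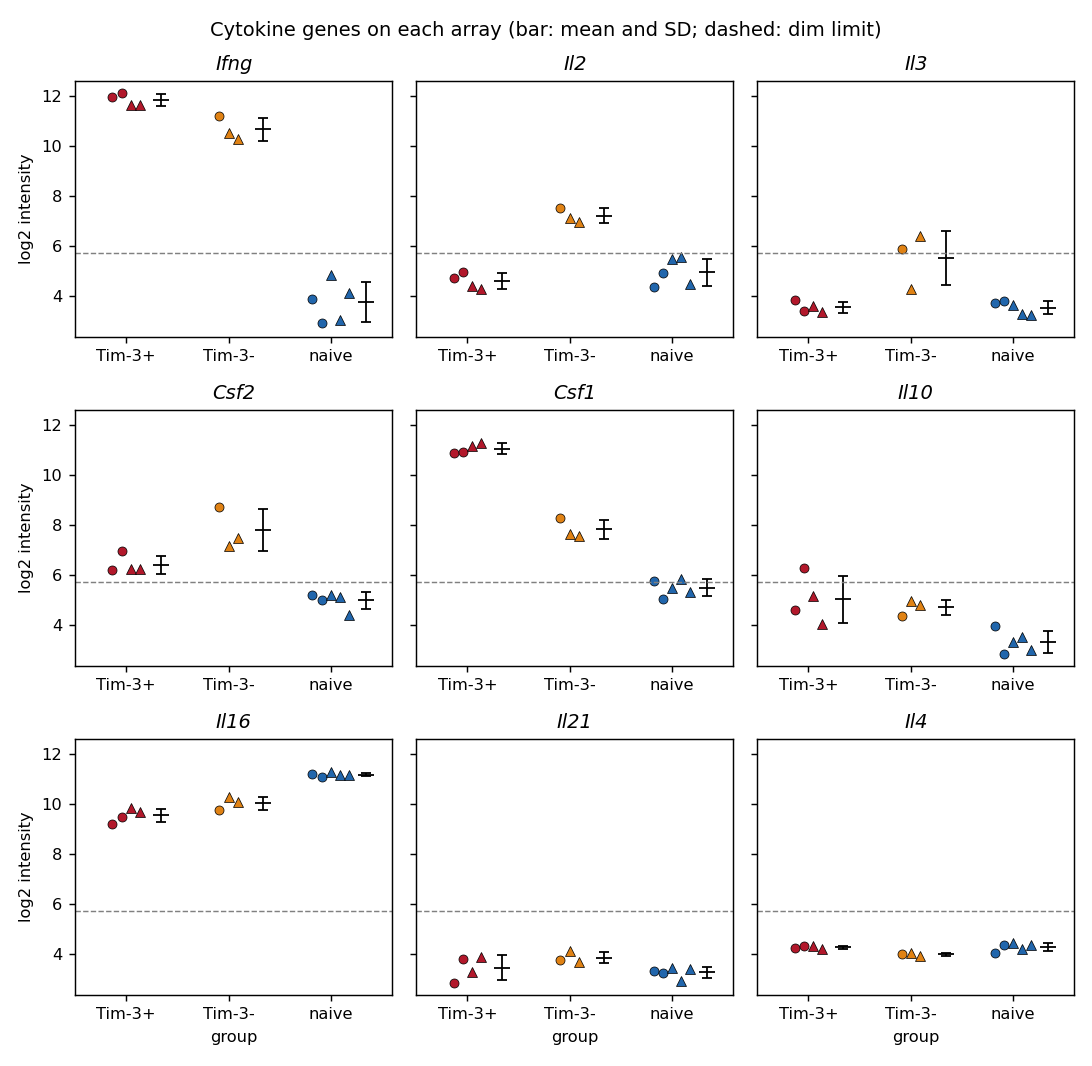
Log2 intensity of each of the 9 measured cytokine genes (vertical axis) on every array of the Tim-3+ TIL (n = 4), Tim-3- TIL (n = 3) and naive groups (n = 5). Circles are arrays of set A and triangles of set B, bars show mean and SD, and the dashed line is the dim limit of 5.71. Il2, Il3 and Csf2 peak in the middle group, Csf1 and Ifng in the left one and Il16 in the right one, and all groups of Il4, Il10, Il21 and Il3 average below the limit.

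Il2 was highest in Tim-3- TIL. Its arrays read 4.73, 4.96, 4.41 and 4.28 in Tim-3+ TIL, 7.54, 7.12 and 6.97 in Tim-3- TIL, and 4.37, 4.90, 5.46, 5.54 and 4.47 in naive cells. The Tim-3- arrays stood above all the others, and those of Tim-3+ TIL and naive cells overlapped below the dim limit. Il2 fell by 2.62 ± 0.28 (SE, log2) in Tim-3+ against Tim-3- TIL (limma, adjusted p = 2.22e-05), and the change was -2.69 within set A and -2.70 within set B. In Tim-3- TIL it was 2.26 ± 0.27 above naive cells (adjusted p = 1.26e-05). The change between Tim-3+ TIL and naive cells, -0.36 with a 95% interval of -0.88 to 0.17, did not pass the test (adjusted p = 0.272). A second probe set names both Ntan1 and Il2 and read 9.41 ± 0.22 in Tim-3+ TIL, 8.82 ± 0.16 in Tim-3- TIL and 8.71 ± 0.28 in naive cells. It went the other way between the TIL groups (0.59, adjusted p = 0.0427 over all probe sets), and which of the 2 genes it reports cannot be read from the arrays.

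Il21 and Il4, whose receptors also use the common gamma chain, were dim in every group. Il21, a T cell product that sustains CD8 responses and B cell help, averaged 3.45 ± 0.49 in Tim-3+ TIL, 3.85 ± 0.22 in Tim-3- TIL and 3.26 ± 0.21 in naive cells. It passed the test between Tim-3- TIL and naive cells, at a log2 change of 0.58 (adjusted p = 0.0483), but in only 3 of 12 fits that left out 1 array. Its second probe set read 2.76 in Tim-3+ TIL, 2.69 in Tim-3- TIL and 2.75 in naive cells and passed no test. Il4, the defining cytokine of type 2 helper cells, averaged 4.27 ± 0.05 in Tim-3+ TIL, 3.99 ± 0.06 in Tim-3- TIL and 4.29 ± 0.17 in naive cells. Its log2 change between Tim-3- TIL and naive cells was -0.30 (adjusted p = 0.0396), which held in 4 of 12 such fits. Neither gene passed the test in the other comparisons: between the TIL groups the change was -0.39 for Il21 (adjusted p = 0.321) and 0.28 for Il4 (0.123), and in Tim-3+ TIL against naive cells it was 0.19 for Il21 (0.476) and -0.02 for Il4 (0.89).

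Il3 had the profile of Il2 with more scatter. Its arrays read 3.83, 3.41, 3.58 and 3.35 in Tim-3+ TIL, 5.87, 4.29 and 6.39 in Tim-3- TIL, and 3.73, 3.79, 3.62, 3.29 and 3.22 in naive cells. Every Tim-3- array lay above every other array, although Tim-3- replicate 2 was nearer to the other groups than to its own 2 partners. The log2 change between the TIL groups was -1.97 ± 0.36 (adjusted p = 0.00194), and it was -2.25 within set A and -1.87 within set B, where it did not pass the test (adjusted p = 0.0639). Tim-3- TIL stood 1.99 ± 0.34 above naive cells (adjusted p = 3.79e-04). Tim-3+ TIL and naive cells differed by 0.02, with an interval of -0.66 to 0.69. All 3 group means lay below the dim limit, and 2 of the 3 Tim-3- arrays above it.

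Csf2 formed a series of 3 levels. Tim-3+ TIL had 6.19, 6.95, 6.23 and 6.23, Tim-3- TIL had 8.74, 7.17 and 7.49, and naive cells had 5.21, 5.00, 5.21, 5.12 and 4.40. The groups did not overlap, with Tim-3- TIL highest and naive cells lowest. Csf2 was 2.64-fold lower in Tim-3+ than in Tim-3- TIL, a log2 change of -1.40 ± 0.32 (adjusted p = 0.0095). Without Tim-3- replicate 1, the brightest array, the change was -0.93 and still passed the test. It was -2.17 within set A, which holds that array, and -1.10 within set B. Against naive cells, below the dim limit, Csf2 rose by 1.41 ± 0.28 in Tim-3+ TIL (adjusted p = 9.60e-04) and by 2.81 ± 0.31 in Tim-3- TIL (adjusted p = 6.45e-06).

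Il2, Il3 and Csf2 were thus the 3 cytokines that passed the test as higher in Tim-3- TIL than in both other groups, a pattern of 434 genes or 2.39% of all. In the order of protein-coding genes in RefSeq (GRCm38.p6) Il3 and Csf2 are next to each other on chromosome 11, and Il2 is next to Il21 on chromosome 3. Of 20 measured genes from a list of chromosomal neighbours of the cytokines, 4 rose and 2 fell in Tim-3+ against Tim-3- TIL, where 13.5% of all genes passed. Set against naive cells, 4 were higher and 4 lower in Tim-3+ TIL (41.5% of all genes), and 4 were higher and 5 lower in Tim-3- TIL (34.4%). Acsl6, on the other side of Il3, averaged 3.68 in Tim-3+ TIL, 3.80 in Tim-3- TIL and 3.79 in naive cells and passed no test. P4ha2, on the other side of Csf2, averaged 4.99 in Tim-3+ TIL, 5.44 in Tim-3- TIL and 4.66 in naive cells and rose by 0.78 ± 0.15 in Tim-3- TIL against naive cells (adjusted p = 9.44e-04, and 0.164 within set A). Pdlim4, beyond it, averaged 4.42 in Tim-3+ TIL, 4.58 in Tim-3- TIL and 5.64 in naive cells and fell against naive cells by 1.22 in Tim-3+ TIL and by 1.06 in Tim-3- TIL, where the call was lost within set A (adjusted p = 0.0826). Neither passed the test between the TIL groups. Beside Il2, Adad1 averaged 2.77 in Tim-3+ TIL, 2.91 in Tim-3- TIL and 2.91 in naive cells and passed none either. Fgf2, a fibroblast growth factor gene beyond Il21, averaged 3.70 ± 0.41 in Tim-3+ TIL, 6.15 ± 0.41 in Tim-3- TIL and 4.01 ± 0.38 in naive cells. It fell by 2.44 ± 0.26 in Tim-3+ against Tim-3- TIL (adjusted p = 2.29e-05). Il21 lies between Il2 and Fgf2, and its change in that comparison did not pass the test. Next to Il4, Il13 and Il5, both type 2 cytokines, were dim in all groups, at 4.11 in Tim-3+ TIL, 3.93 in Tim-3- TIL and 4.38 in naive cells for Il13, and at 4.81 in Tim-3+ TIL, 4.77 in Tim-3- TIL and 4.78 in naive cells for Il5. Il13 passed the test in Tim-3- TIL against naive cells (log2 change -0.45, adjusted p = 0.0478), and Il5 passed none. The Il13 call was lost in most fits without 1 array, such as that without Tim-3- replicate 3 (adjusted p = 0.133). The 4 neighbours that rose in Tim-3+ against Tim-3- TIL were Kif3a (log2 change 0.77, adjusted p = 0.0240) and Rad50 (0.54, 0.0149) on either side of Il4 and Il13, Mapkapk2 (0.63, 0.0284) beside Il10 and Ahcyl1 (0.62, 0.00415) beside Csf1. The first 3 calls were each lost in some fits without 1 array. The 2 that fell were Fgf2 and Irf1, an interferon regulatory factor gene (-0.62, adjusted p = 0.0021, and 0.0850 within set A).

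Csf1 ran the other way, with its highest level in Tim-3+ TIL. Its arrays read 10.87, 10.92, 11.16 and 11.31 in Tim-3+ TIL, 8.27, 7.66 and 7.58 in Tim-3- TIL, and 5.78, 5.06, 5.47, 5.86 and 5.34 in naive cells. The groups lay far apart, and the spread within each was small beside the gaps. In Tim-3+ TIL the level of Csf1 was 9.38 times that of Tim-3- TIL, a log2 change of 3.23 ± 0.21 (adjusted p = 1.87e-07), which was 2.62 within set A and 3.62 within set B. Against naive cells, whose mean of 5.50 is below the dim limit, it was higher by 5.57 ± 0.18 in Tim-3+ TIL (adjusted p = 1.63e-11) and by 2.34 ± 0.20 in Tim-3- TIL (adjusted p = 5.32e-07). It was the only cytokine of the 9 that passed the test at both steps, Tim-3- TIL over naive cells and Tim-3+ over Tim-3- TIL, a pattern of 601 genes or 3.30% of all. All 4 of its probe sets rose in Tim-3+ against Tim-3- TIL, by 2.13 to 3.37, and in Tim-3- TIL against naive cells, by 0.46 to 2.34. The size against naive cells depended on the probe set. The pair with naive means above the dim limit, at 6.71 and 6.35, rose in Tim-3+ TIL against naive cells by 2.69 ± 0.14 and 2.76 ± 0.10, and the third, with a naive mean of 5.16, by 4.64 ± 0.14.

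**Figure D2:**
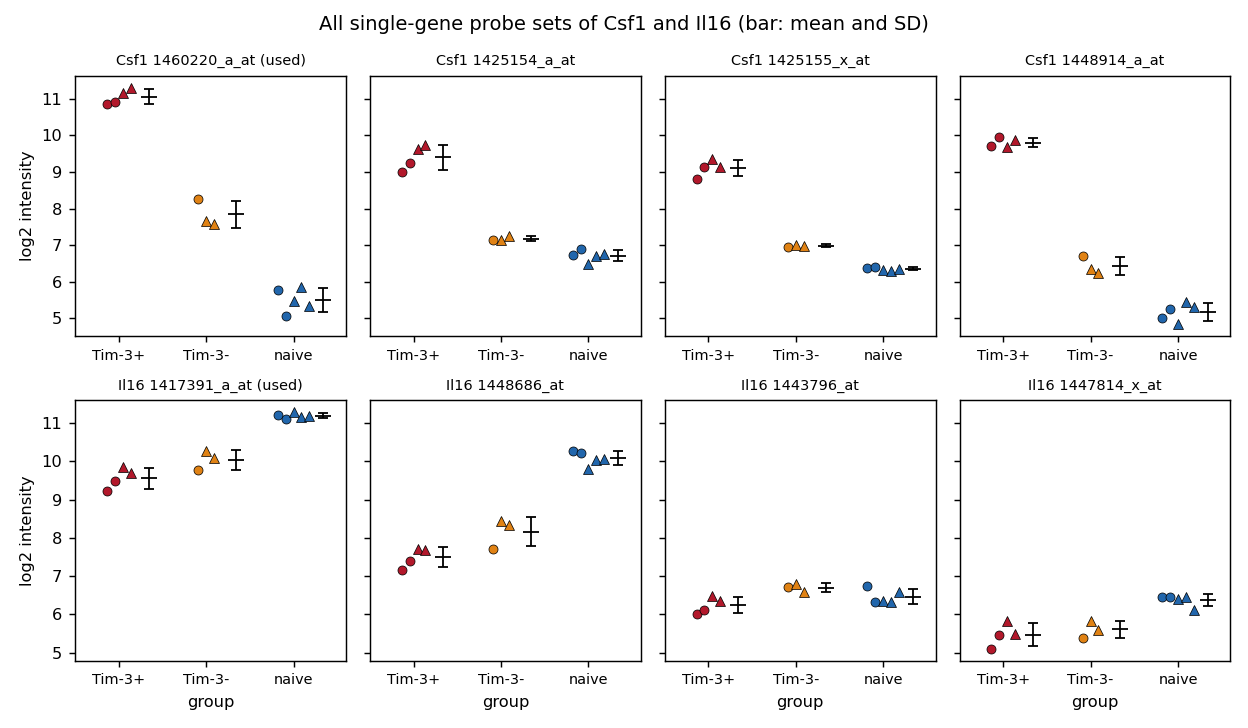
Log2 intensity of the 4 single-gene probe sets of Csf1 (top row) and of Il16 (bottom row) on every array, by group (Tim-3+ TIL, Tim-3- TIL, naive), with mean and SD. Circles are set A and triangles set B. The Csf1 probe sets share 1 order of the groups, with the gap between naive cells and Tim-3- TIL widest in the probe set that was used, while the third Il16 probe set from the left, unlike the other 3, does not have its highest mean in naive cells (6.24 in Tim-3+ TIL, 6.70 in Tim-3- TIL and 6.46 in naive cells).

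Ifng was bright in both TIL groups and dim in naive cells. Tim-3+ TIL had 11.96, 12.14, 11.66 and 11.64, Tim-3- TIL had 11.20, 10.51 and 10.29, and naive cells had 3.86, 2.92, 4.83, 3.03 and 4.12. The increase over naive cells, at best a lower bound, was 8.10 ± 0.33 in Tim-3+ TIL (adjusted p = 1.29e-10) and 6.92 ± 0.36 in Tim-3- TIL (adjusted p = 4.36e-09). Every Tim-3+ array lay above every Tim-3- array, by a mean of 1.18 ± 0.38 or 2.27-fold. That difference missed the threshold (adjusted p = 0.0536) and depended on single arrays: the adjusted p ranged from 0.0177 to 0.190 over fits that left out 1 array, and 4 of the 12 passed. It also passed in some other alternatives, such as an offset of 32 before the log (adjusted p = 0.00392). Within set A the change was 0.85 (adjusted p = 0.230) and within set B 1.25 (adjusted p = 0.131).

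Il10, an inhibitory cytokine of regulatory and strongly stimulated T cells, was dim on average in every group and uneven in Tim-3+ TIL. Tim-3+ TIL had 4.62, 6.28, 5.15 and 4.05, Tim-3- TIL had 4.38, 4.96 and 4.80, and naive cells had 3.97, 2.83, 3.31, 3.51 and 3.00. Only Tim-3+ replicate 2 stood above the dim limit, and the TIL groups overlapped. The change between them, 0.31 with an interval of -0.56 to 1.19, did not pass the test (adjusted p = 0.731), and it was 1.07 within set A and -0.28 within set B. Il10 rose against naive cells by 1.70 ± 0.36 in Tim-3+ TIL (adjusted p = 0.0014) and by 1.39 ± 0.39 in Tim-3- TIL (adjusted p = 0.0126). The call for Tim-3- TIL did not hold when Tim-3- replicate 2 was left out (adjusted p = 0.0540), nor within set A (0.397).

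Il16, made as a precursor that is cut to a ligand of CD4, is known to be abundant in resting T cells. Its arrays read 9.21, 9.48, 9.85 and 9.68 in Tim-3+ TIL, 9.76, 10.27 and 10.09 in Tim-3- TIL, and 11.22, 11.10, 11.28, 11.16 and 11.19 in naive cells. Naive arrays lay above all TIL arrays, and the TIL groups overlapped. Against naive cells Il16 was 3.10-fold lower in Tim-3+ TIL (log2 change -1.63 ± 0.13, adjusted p = 1.86e-07) and 2.21-fold lower in Tim-3- TIL (-1.15 ± 0.14, adjusted p = 2.45e-05). Between the TIL groups it fell by 0.49 ± 0.15 (adjusted p = 0.0478), a call kept in 2 of 12 fits without 1 array and lost in a fit of the TIL arrays alone (adjusted p = 0.132). Of its 3 other probe sets, those with naive means of 10.08 and 6.37 also passed against naive cells in both TIL groups, whereas the one with a naive mean of 6.46 did not, at log2 changes of -0.22 in Tim-3+ TIL and 0.23 in Tim-3- TIL. Between the TIL groups that probe set changed by -0.46 ± 0.14 (adjusted p = 0.0571 over all probe sets) and the others by -0.67 (0.0347) and -0.14 (0.723). In that fit the Il16 probe set used above had an adjusted p of 0.0613.

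Against naive cells, 4 of the 9 cytokines were higher in Tim-3+ TIL and 1 was lower, where 41.5% of all genes passed the test (20.1% higher and 21.4% lower). In Tim-3- TIL 7 were higher and 2 lower, where 34.4% passed (16.1% higher and 18.3% lower). The median log2 change over the 9 was 0.19 in Tim-3+ TIL and 1.99 in Tim-3- TIL, beside -0.07 and -0.06 over all genes. Arrays did not overlap with those of naive cells for 5 of the 9 genes in Tim-3+ TIL, where 37.3% of all genes showed no overlap, and for 8 of the 9 in Tim-3- TIL, where 35.1% did. These comparisons share the naive arrays, so that the counts are not independent of each other.

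**Figure D3:**
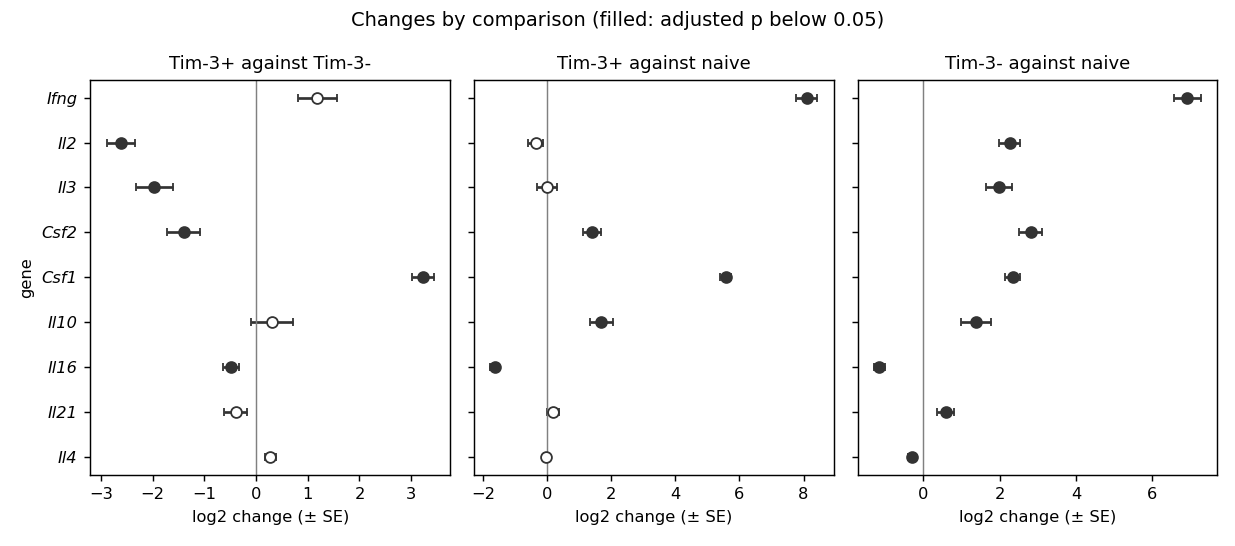
Log2 change ± SE of the 9 cytokine genes in each comparison, the first group named minus the second, from 1 limma fit over 12 arrays. Filled points passed the adjusted p of 0.05 and open points did not. Il2, Il3 and Csf2 lie left of 0 in the first panel and right of 0 in the last, and Csf1 lies right of 0 in all 3.

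The receptors of these cytokines were listed as 21 genes, of which 20 were measured. Between the TIL groups 1 rose and 2 fell in Tim-3+ TIL, with a median log2 change of 0.05, where 13.5% of all genes passed. Set against naive cells, Tim-3+ TIL had 12 receptor genes higher and 1 lower, where 41.5% of all genes passed. Tim-3- TIL had 11 higher and 2 lower, where 34.4% passed. The receptor gene with the smallest adjusted p between the TIL groups was Itgb1, the integrin beta 1 chain, which takes part in osteopontin binding. It averaged 10.75 ± 0.11 in Tim-3+ TIL, 12.17 ± 0.10 in Tim-3- TIL and 8.47 ± 0.11 in naive cells, and fell by 1.42 ± 0.10 in Tim-3+ against Tim-3- TIL (adjusted p = 7.25e-07). Cd44, a hyaluronan and osteopontin receptor that marks antigen-experienced T cells, averaged 10.56 ± 0.09 in Tim-3+ TIL, 10.88 ± 0.25 in Tim-3- TIL and 6.17 ± 0.26 in naive cells. It rose against naive cells by 4.39 ± 0.14 in Tim-3+ TIL and by 4.72 ± 0.15 in Tim-3- TIL, and its change between the TIL groups did not pass the test (adjusted p = 0.233). The chains of the interferon gamma receptor differed in direction. Ifngr1, which binds the cytokine, averaged 11.59 ± 0.22 in Tim-3+ TIL, 11.79 ± 0.48 in Tim-3- TIL and 9.67 ± 0.19 in naive cells. Ifngr2, the signalling chain, averaged 5.30 ± 0.31 in Tim-3+ TIL, 6.01 ± 0.14 in Tim-3- TIL and 9.70 ± 0.08 in naive cells, and fell against naive cells by 4.39 ± 0.13 in Tim-3+ TIL (adjusted p = 6.54e-12) and by 3.68 ± 0.14 in Tim-3- TIL (adjusted p = 1.98e-10). It also fell in Tim-3+ against Tim-3- TIL, by 0.71 ± 0.15 (adjusted p = 0.00493, and 0.156 within set A).

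The IL-2 receptor genes were high in both TIL groups. Il2ra, the alpha chain CD25, averaged 9.53 ± 0.27 in Tim-3+ TIL, 9.37 ± 0.18 in Tim-3- TIL and 5.12 ± 0.56 in naive cells. It rose against naive cells by 4.41 ± 0.24 in Tim-3+ TIL and by 4.26 ± 0.26 in Tim-3- TIL, and the change between the TIL groups, 0.15 ± 0.27, did not pass the test (adjusted p = 0.81). Il2rb, the shared beta chain, averaged 13.07 in Tim-3+ TIL, 12.63 in Tim-3- TIL and 10.79 in naive cells. Il10ra, the ligand-binding chain for IL-10, averaged 9.32 ± 0.30 in Tim-3+ TIL, 8.30 ± 0.12 in Tim-3- TIL and 6.42 ± 0.46 in naive cells and rose by 1.02 ± 0.24 in Tim-3+ against Tim-3- TIL (adjusted p = 0.0102), a call lost within either array set. Of the receptors for the myeloid growth factors, Csf2ra, the alpha chain for GM-CSF, averaged 5.91 in Tim-3+ TIL, 6.34 in Tim-3- TIL and 5.89 in naive cells. It rose by 0.45 ± 0.14 in Tim-3- TIL against naive cells (adjusted p = 0.0206), a call lost with the replicate block (0.0576), within set A (0.298) and without Tim-3- replicate 3 (0.133). Csf2rb, the beta chain shared by IL-3 and GM-CSF, lay below the dim limit, at 4.94 in Tim-3+ TIL, 4.45 in Tim-3- TIL and 4.42 in naive cells, and rose by 0.52 ± 0.14 in Tim-3+ TIL against naive cells (adjusted p = 0.00936, and 0.286 within set A). Csf1r, the M-CSF receptor, averaged 5.90 in Tim-3+ TIL, 5.75 in Tim-3- TIL and 5.98 in naive cells and passed no test.

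**Figure D4:**
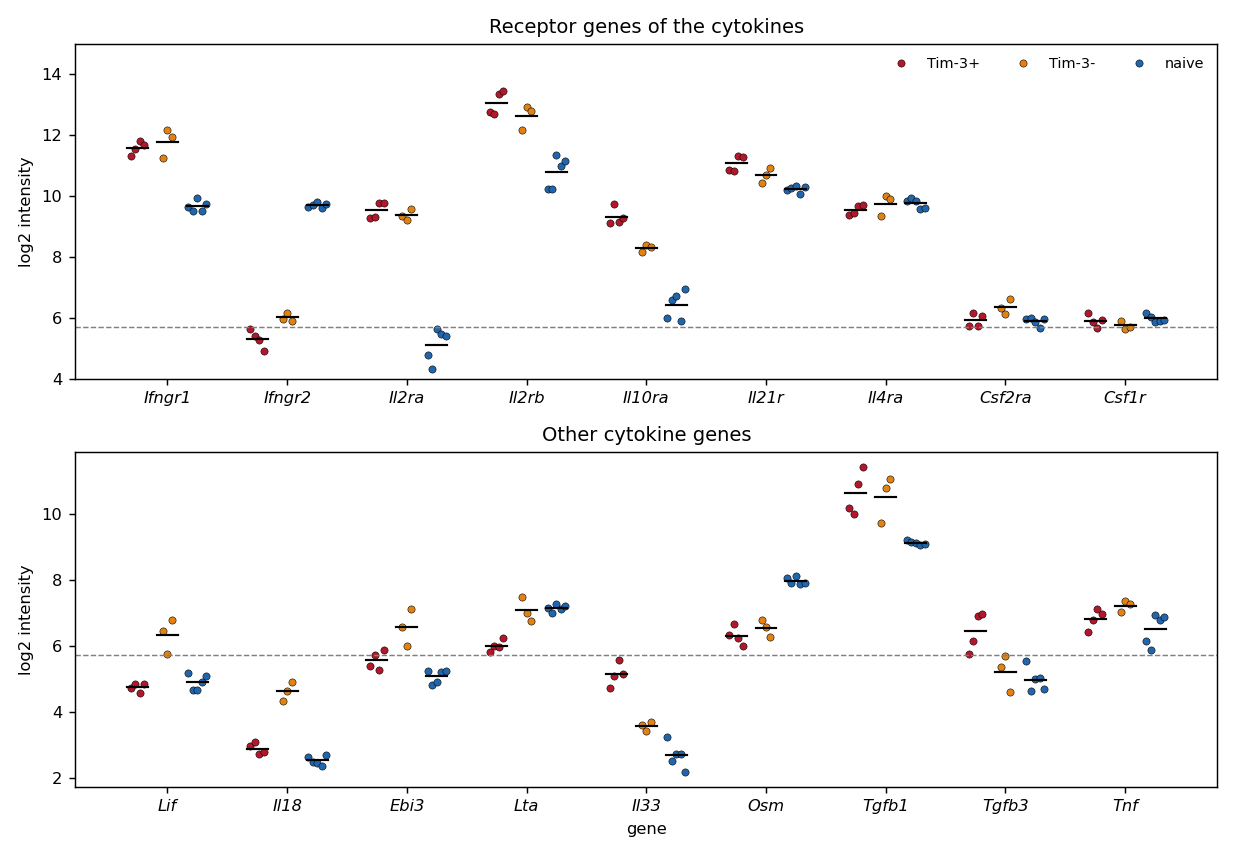
Log2 intensity on every array for 9 receptor genes (top) and 9 other cytokine genes (bottom), with Tim-3+ TIL, Tim-3- TIL and naive arrays side by side for each gene, group means as black lines and the dim limit dashed. Ifngr2 is high in naive cells and Ifngr1 in TIL, and Lif, Il18 and Ebi3 peak in Tim-3- TIL below or near the limit.

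Downstream of these receptors, 8 kinase and STAT genes were measured, with a median log2 change of -0.29 in Tim-3+ against Tim-3- TIL. Of these, 0 rose and 4 fell in that comparison, where 13.5% of all genes passed. The 4 were Stat5a, Jak2, Stat5b and Stat6. In a fit of the TIL arrays alone, the calls of Stat5b (log2 change -0.83, limma, adjusted p = 0.0742) and Stat6 (-0.31, 0.0729) were lost. Both were also lost in some fits without 1 array. Stat5a, the transcription factor that relays IL-2, averaged 10.23 ± 0.10 in Tim-3+ TIL, 11.06 ± 0.08 in Tim-3- TIL and 10.05 ± 0.13 in naive cells. Jak2, the kinase of the IL-3, GM-CSF and interferon gamma receptors, averaged 10.05 ± 0.45 in Tim-3+ TIL, 11.46 ± 0.22 in Tim-3- TIL and 10.18 ± 0.09 in naive cells and fell by 1.41 ± 0.19 between the TIL groups (adjusted p = 2.25e-04). Stat3, used by IL-10 and IL-21, rose against naive cells by 2.05 ± 0.14 in Tim-3+ TIL and 1.95 ± 0.15 in Tim-3- TIL, and passed no test between them. Stat6, used by IL-4, averaged 10.59 in Tim-3+ TIL, 10.90 in Tim-3- TIL and 11.28 in naive cells, and Jak1 averaged 11.24 in Tim-3+ TIL, 11.52 in Tim-3- TIL and 11.99 in naive cells.

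Genes known to respond to IL-2 and STAT5 went both ways. Of 20, all measured, 3 rose and 7 fell in Tim-3+ against Tim-3- TIL, where 13.5% of all genes passed. Cd83, an activation marker, averaged 7.55 ± 0.22 in Tim-3+ TIL, 10.41 ± 0.68 in Tim-3- TIL and 5.87 ± 0.32 in naive cells, and Socs3, a feedback inhibitor, averaged 9.06 in Tim-3+ TIL, 10.98 in Tim-3- TIL and 9.88 in naive cells. Prdm1, which codes Blimp-1, a known repressor of Il2, averaged 8.79 ± 0.16 in Tim-3+ TIL, 6.74 ± 0.07 in Tim-3- TIL and 5.36 ± 0.32 in naive cells and rose by 2.04 ± 0.17 in Tim-3+ against Tim-3- TIL (adjusted p = 1.73e-06). Gzmb, the granzyme B gene, averaged 12.88 in Tim-3+ TIL, 10.21 in Tim-3- TIL and 5.80 in naive cells.

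Genes known to be induced by interferon gamma also went both ways. Of 27 measured, 3 rose and 6 fell in Tim-3+ against Tim-3- TIL (median log2 change 0.00), where 13.5% of all genes passed. Set against naive cells, Tim-3+ TIL had 6 of them higher and 8 lower, where 41.5% of all genes passed. Tim-3- TIL had 3 higher and 7 lower, where 34.4% passed. Cxcl10, a chemokine that draws activated T cells, averaged 8.41 ± 0.45 in Tim-3+ TIL, 10.62 ± 0.07 in Tim-3- TIL and 5.65 ± 0.31 in naive cells. Irgm2, an interferon-induced GTPase, averaged 7.99 in Tim-3+ TIL, 8.29 in Tim-3- TIL and 10.38 in naive cells, and its log2 change against naive cells was -2.38 ± 0.15 in Tim-3+ TIL and -2.09 ± 0.16 in Tim-3- TIL.

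Among 30 other cytokine genes measured, 2 rose and 4 fell in Tim-3+ against Tim-3- TIL (13.5% of all genes passed there in either direction). Lif, an IL-6 family cytokine, had the shape of Il2, at 4.75 ± 0.13 in Tim-3+ TIL, 6.33 ± 0.52 in Tim-3- TIL and 4.90 ± 0.23 in naive cells (log2 change between the TIL groups -1.58 ± 0.20, adjusted p = 1.22e-04). Il18 averaged 2.89 in Tim-3+ TIL, 4.63 in Tim-3- TIL and 2.53 in naive cells, below the dim limit throughout. Il33, an alarmin, averaged 5.13 in Tim-3+ TIL, 3.58 in Tim-3- TIL and 2.68 in naive cells and rose by 1.55 ± 0.22 in Tim-3+ against Tim-3- TIL (adjusted p = 3.11e-04, and 0.068 within set A), also below the limit. Lta, the lymphotoxin alpha gene, averaged 6.00 ± 0.18 in Tim-3+ TIL, 7.07 ± 0.38 in Tim-3- TIL and 7.15 ± 0.11 in naive cells and fell by 1.15 ± 0.14 in Tim-3+ TIL against naive cells (adjusted p = 1.07e-05). Osm, oncostatin M, averaged 6.30 in Tim-3+ TIL, 6.54 in Tim-3- TIL and 7.96 in naive cells and fell against naive cells in both (log2 change -1.66 ± 0.14 in Tim-3+ TIL and -1.42 ± 0.15 in Tim-3- TIL).

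Of 39 measured transcription factors known to control cytokine genes, 3 rose and 10 fell in Tim-3+ against Tim-3- TIL, where 13.5% of all genes passed. Set against naive cells, 26 were higher and 10 lower in Tim-3+ TIL (41.5% of all genes), and 28 were higher and 4 lower in Tim-3- TIL (34.4%). Bcl6, a repressor in follicular helper and memory cells, averaged 7.95 ± 0.69 in Tim-3+ TIL, 10.64 ± 0.51 in Tim-3- TIL and 8.80 ± 0.26 in naive cells and fell by 2.69 ± 0.32 between the TIL groups (adjusted p = 6.42e-05). Eomes, a T-box activator of Ifng, averaged 9.82 in Tim-3+ TIL, 10.79 in Tim-3- TIL and 8.61 in naive cells. Crem, whose product includes repressors of Il2, averaged 11.03 in Tim-3+ TIL, 10.76 in Tim-3- TIL and 5.90 in naive cells, high in both TIL groups. Fosl2, an AP-1 subunit, averaged 11.30 in Tim-3+ TIL, 11.64 in Tim-3- TIL and 8.58 in naive cells, and Zeb2 averaged 9.80 in Tim-3+ TIL, 9.32 in Tim-3- TIL and 3.05 in naive cells.

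RNA of 18 genes whose products regulate cytokine mRNA was also measured. Of these, 1 rose and 5 fell in Tim-3+ against Tim-3- TIL, where 13.5% of all genes passed. Zfp36l1, which directs decay of AU-rich messages, averaged 9.65 ± 0.41 in Tim-3+ TIL, 11.18 ± 0.57 in Tim-3- TIL and 11.48 ± 0.12 in naive cells. Zc3h12d averaged 10.05 in Tim-3+ TIL, 11.14 in Tim-3- TIL and 10.16 in naive cells, and Zc3h12a, the nuclease Regnase-1, averaged 8.03 in Tim-3+ TIL, 9.20 in Tim-3- TIL and 6.79 in naive cells. Zc3h12c rose instead, by 1.24 ± 0.18 in Tim-3+ against Tim-3- TIL (adjusted p = 4.06e-04), with means of 7.19 in Tim-3+ TIL, 5.95 in Tim-3- TIL and 2.92 in naive cells.

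The genes whose centred profiles over the 12 arrays lay nearest to each cytokine are a description of likeness alone. The distance is the root mean square difference in log2 units. For Ifng they were S100a4 (0.386), S100a6 (0.508) and Bhlhe40 (0.570), of which Bhlhe40 codes a known regulator of cytokine production in T cells. Those of Il2 were Klrb1f (0.412), D930003E18Rik and Gm31718, and those of Il3 were Galnt14 (0.392), Vat1l and Lif (0.426), so that another cytokine was among them. Csf1 was nearest to Ripply3 (0.389), Glp1r and AA467197, and Csf2 to Tex15 (0.389), Rel (0.403), which codes the NF-kappaB subunit c-Rel, and Spry1. Il10 was nearest to Sh3yl1, Tff1 and Dkkl1, and Il16 to Slfn2 (0.140), Lrig2 and Leng1. The dim genes Il21 (Ppef2, Mxd4 and Morn3) and Il4 (AU018091, Ets2 and Bysl) varied by 0.370 and 0.162 in the same measure over the arrays, against 3.81 for Ifng.

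Markers of other cells were read beside these results, as sums of linear intensities over each list. The brightest probe sets weigh most in a sum, which can therefore go against the counts of its markers. The CD4 and regulatory T cell list holds 10 genes that activated CD8 cells also express in part. It summed to 8542 to 9626 in Tim-3+ TIL, 10010.0 to 11522 in Tim-3- TIL and 1423 to 1964 in naive cells. In Tim-3+ against Tim-3- TIL 5 of its 10 genes fell, where 5.77% of all genes did. Foxp3, the regulatory T cell factor and one of the genes that fell, averaged 6.93 ± 0.16 in Tim-3+ TIL, 7.94 ± 0.09 in Tim-3- TIL and 7.09 ± 0.18 in naive cells, and Cd4 averaged 7.50 in Tim-3+ TIL, 7.34 in Tim-3- TIL and 6.51 in naive cells. Mast cell and basophil markers, from cells that make Il3 and Il4, summed to 368 to 548 in Tim-3+ TIL, 548 to 703 in Tim-3- TIL and 238 to 269 in naive cells, with 5 of 9 below the dim limit in every group. Taken singly, 1 of the 9, Mcpt8, rose in Tim-3+ against Tim-3- TIL and 0 fell, where 13.5% of all genes passed. The sums and this count thus differ in direction. Macrophage markers summed to 1106 to 1338 in Tim-3+ TIL, 998 to 1147 in Tim-3- TIL and 726 to 808.5 in naive cells. Of the 20, 11 lay below the limit in every group, and Adgre1 averaged 3.18 in Tim-3+ TIL, 3.14 in Tim-3- TIL and 3.17 in naive cells. Against naive cells 4 were higher and 2 lower in Tim-3+ TIL (41.5% of all genes passed), and 2 were higher and 1 lower in Tim-3- TIL (34.4%). In Tim-3+ against Tim-3- TIL 1 rose, Cd14, and 1 fell, Cd68 (13.5% of all genes passed). The Cd14 call was lost within set B (log2 change 0.85, limma, adjusted p = 0.0726). The Cd68 call was lost in some fits without 1 array. B cell markers summed to 496 to 587 in Tim-3+ TIL, 1299.8 to 1429.6 in Tim-3- TIL and 3053 to 3969.8 in naive cells. Melanoma markers summed to 673 to 1588 in Tim-3+ TIL, 680 to 962 in Tim-3- TIL and 1008 to 1216 in naive cells. Mlana averaged 5.86 in Tim-3+ TIL, 4.91 in Tim-3- TIL and 4.74 in naive cells. Taken singly against naive cells, 5 of the 12 markers were higher and 2 lower in Tim-3+ TIL, where 41.5% of all genes passed. Among the 5 were Tyrp1 and Dct, whose log2 changes within set A were 3.47 and 2.59, where neither passed the test. In Tim-3- TIL 2 were higher, again Tyrp1 and Dct, and 2 lower, where 34.4% of all genes passed. Between the TIL groups 0 passed the test. NK cell markers, of which activated CD8 cells also express several, summed to 1515 to 1768 in Tim-3+ TIL, 1803 to 1976 in Tim-3- TIL and 473 to 612 in naive cells. Of the 6 measured, 3 rose and 1 fell in Tim-3+ against Tim-3- TIL, where 13.5% of all genes passed. Ncr1, which marks NK cells, averaged 3.20 in Tim-3+ TIL, 3.32 in Tim-3- TIL and 3.40 in naive cells. Neutrophil markers summed to 357 to 615 in Tim-3+ TIL, 209 to 227 in Tim-3- TIL and 216 to 322 in naive cells, with 6 of 8 below the dim limit in every group. Of the 8, Ltf alone rose in Tim-3+ against Tim-3- TIL (13.5% of all genes passed), at 7.92 in Tim-3+ TIL, 4.66 in Tim-3- TIL and 4.75 in naive cells. Dendritic cell markers summed to 3150 to 5188 in Tim-3+ TIL, 2179 to 3813 in Tim-3- TIL and 3446 to 3670 in naive cells. Of 13, 2 rose (Clec10a and Irf8) and 2 fell (Itgax and Cd74) in Tim-3+ against Tim-3- TIL, where 13.5% of all genes passed. Fibroblast and endothelial markers summed to 479 to 568 in Tim-3+ TIL, 697 to 712 in Tim-3- TIL and 1215 to 1450.5 in naive cells. Of those 12, Pecam1 alone passed the test between the TIL groups (13.5% of all genes passed), at 6.71 in Tim-3+ TIL, 8.17 in Tim-3- TIL and 9.77 in naive cells, and 8 lay below the limit in every group. The part of these cells in the cytokine results was not tested.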

How the data were processed

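The values were deposited by the authors as linear intensities per probe set, 1 column per sample, in the series' value table; per the submitters' processing notes RMA and the affy package were used. Their versions, how values returned to a linear scale, and if 1 normalization covered the 12 arrays were not given in the sources used here. Array medians ran from 58.8 to 63.0. The log2 of each value was taken with no offset. The number of arrays limits the precision.

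Of 45101 probe sets, 64 are controls, 34945 name 1 gene, 932 several and 9160 none, by the platform annotation, which can be old. Per gene the single-gene probe set with the highest mean was used, giving 18193 genes. One limma fit (3.58.1, R 4.3.3) of 3 group means over 12 arrays gave all contrasts, two-sided, with Benjamini-Hochberg adjustment over all genes and a threshold of 0.05. It was tested on simulated data. Summaries used Python 3.11.15, numpy 2.4.6, pandas 2.3.3 and matplotlib 3.10.9.

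The members, gene lists and alternatives were chosen with earlier results of these data known. Genes named outside the cytokines were up to 3 per list with the smallest adjusted p in each comparison, fixed markers, chromosomal neighbours and nearest profiles. Ifngr1, Il2ra, Il2rb, Il21r, Il4ra, Csf2ra, Csf2rb, Ebi3, Tgfb1, Tgfb3, Tnf, Cd244a, Cd14, Cd68, Tyrp1, Dct, Ltf, Clec10a, Irf8, Itgax, Cd74 and Pecam1 fall outside this rule and were named or drawn after their values were seen. The lists come from general knowledge.

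Replicate numbers are shared between groups. For Tim-3+ TIL against naive cells the deviations of same-numbered arrays correlated at 0.128 to 0.319 in all 4 pairs. Only 1 of 4 arrays correlated best with its own number. In both groups replicates 1 and 2 lie in set A and replicates 3 and 4 in set B. The correlations therefore cannot tell pairing by number from the shared set, and the labels name no shared mouse or day. The replicate block changed no cytokine call in Tim-3+ TIL against naive cells. Alternatives were the value per gene, normalization, an offset of 32, a filter on dim genes, array weights, moderation, groups in the fit, the replicate block, the array sets and leaving out each array. Motifs were matched as exact letters in RefSeq promoter windows.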

Additional observations from a re-analysis of the deposited data

Results flagged for a closer look

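Among 146 groups of 4 or 5 arrays tested, 8 had 1 array far from the rest by Dixon's test; chance alone gives about 1 in 20. Csf2 was flagged in both groups large enough to test that hold it: Tim-3+ replicate 2 read 6.95 where its 3 partners lay between 6.19 and 6.23, and naive replicate 5 read 4.40 where the other 4 lay between 5.00 and 5.21. The remaining 6 were genes beside the cytokines. S100a4 read 13.18 and AU018091 read 3.61 on Tim-3+ replicate 2, and Glp1r read 8.12 on Tim-3+ replicate 1. Stat3 read 10.43 on naive replicate 5, Zc3h12c read 2.28 on naive replicate 3 and Mxd4 read 10.29 on naive replicate 4.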

How the results depend on the processing

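The calls for Il2, Csf1 and Csf2 in Tim-3+ against Tim-3- TIL, for Ifng, Csf1, Csf2, Il10 and Il16 in Tim-3+ TIL against naive cells, and for Ifng, Il2, Il3, Csf1, Csf2 and Il16 in Tim-3- TIL against naive cells, kept their direction and passed the test in every alternative that could be computed for them. Among the cytokines, directions turned only for changes that passed no test. Il10 in Tim-3+ against Tim-3- TIL became -0.28 within set B and ranged from -0.11 to 0.64 without 1 array. Against naive cells in Tim-3+ TIL, Il2 became 0.21 within set A; Il3 became -0.0524 after centring on array medians, -0.0630 with the replicate block, -0.139 within set A and -0.0183 with both sets in a block, and ranged from -0.0794 to 0.0801 without 1 array; and Il4 became 0.0742 within set A and ranged from -0.0839 to 0.0207 without 1 array. The genes called in Tim-3+ against Tim-3- TIL numbered 1590 within set A, against 2463, and the cytokines called numbered 3 within set B, against 5; both fits have fewer arrays. A filter on dim genes left 5 cytokines called in Tim-3- TIL against naive cells, against 9, since it removes dim genes from the test. Taking the highest group mean of genes silent in these tissues (Actn2, 9.78) as the limit left 5 of 27 cytokine group means above it, against 10. With the replicate block, Il10, Il21 and Il4 lost their calls in Tim-3- TIL against naive cells (adjusted p = 0.060, 0.059 and 0.073) and Ifng gained one in Tim-3+ against Tim-3- TIL (0.039); for these comparisons not all same-numbered pairs correlated, and 1 of 3, 0 of 3 and 1 of 4 arrays correlated best with their own number in Tim-3+ against Tim-3- TIL, Tim-3- TIL against naive cells and Tim-3+ TIL against naive cells. The cause was not tested. Signal over background limits Il4, Il10, Il21 and Il3 most.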
